A study of Homo sapiens with 2 samples.

Results

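The mitotic genes described here are 40 genes that act when a cell divides its chromosomes, chosen by name, from kinesins and kinetochore proteins to the cyclins and kinases that drive entry into mitosis. All 40 were found by symbol among the 36601 genes of the count tables. They were followed in astrocyte progenitor cells derived from H7, an established human embryonic stem cell line, after LIF, BMP4 and FGF1 given in sequence, in 1 single-cell RNA library from day 160 and 1 from day 220 of differentiation. Per the labels, cells of 3 separate differentiations were combined before loading in each library, and no label tells them apart, so neither day had a replicate and no test between days was possible. For the later library the protocol text repeats day 160, and day 220 was taken from its other labels.

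In a dividing cell most of these genes are transcribed mainly from late S phase through G2, and many of their products are destroyed as the cell leaves mitosis. CDK1 bound to cyclin A and then to cyclin B drives the cell into mitosis, Aurora and Polo-like kinases build the spindle, and the checkpoint holds back the anaphase-promoting complex until every kinetochore is attached. In the developing brain they mark radial glia and other cycling progenitors and are low in neurons, so they are commonly read as marks of proliferation.

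Barcodes with at least 1000 detected genes and at most 15% of UMIs (captured RNA molecules) from mitochondrially encoded genes were used, 9972 at day 160 and 524 at day 220. The libraries held 128847264 and 25981066 UMIs in these cells, with a median of 10457.5 and 46438 UMIs per cell. Because of this gap in depth, shares of cells are given after each cell was thinned at random to 5000 UMIs, which left 9279 and 494 cells. The libraries shared 2 passing barcodes. The labelled cell type was checked against markers: 15 of 17 astrocyte and radial glia genes reached 10 CPM (a gene's share of a library's UMIs on a common scale) in at least 1 library, with summed levels of 4799 CPM at day 160 and 5325 CPM at day 220, while the 5 microglial genes summed to 0.0388 and 1.27 CPM. Neuronal precursor genes summed to 3936 and 2519 CPM and neuron genes to 1853 and 1649 CPM. GFAP, the intermediate filament of astrocytes, had 547 and 135 CPM, and S100B, of the same list, 171 and 568 CPM. Of the 15 genes, 4 were at least 2-fold lower at day 220 and 4 at least 2-fold higher. Among all 10167 genes that reached 10 CPM these shares were 5.15% and 22.8%. AQP4 and ALDH1L1, also of that list, did not reach 10 CPM.

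Many promoters of this family carry CCAAT boxes, bound by NF-Y, and a cell cycle homology region (CHR), where the DREAM and MuvB complexes repress or activate transcription with the cell cycle. RefSeq promoter windows on GRCh38.p14, from 250 bases before to 50 bases after each annotated start, were held for 34 of the 40 genes. CCAAT, searched on both strands, was in the windows of 28 of these (82.4%), against 39.7% of all 27305 genes with a window. TTTGAA or TTTAAA, the usual core of the CHR, was in 31 (91.2%) against 27.9% on either strand, and 20 (58.8%) had 2 or more CCAAT boxes against 12.9%. CCAAT and a CHR core stood together in 25 genes (73.5%), against 11.2% of all genes. A match is a description of letters, not of a bound site. Counted from the annotated start, a CHR core began at -30 in CCNB1, at -41 in KIF20A and at -29 in CKS2, CCNB2 and 1 of the 2 windows of PTTG1, with 2 or more CCAAT boxes upstream of it in each. BUB1, CCNA2 and AURKB had no TTTGAA or TTTAAA in their windows.

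The 160 bases before the annotated start are shown for the gene with the highest day 160 level among those with a window in 5 of the role groups used below, and for KIF4A, whose day ratio was farthest from the median among those with a window. Capitals mark CCAAT boxes (ATTGG where the box lies on the other strand) and CHR cores (TTCAAA where TTTGAA lies on the other strand).
TOP2A, chr17:40417897-40418056, minus strand: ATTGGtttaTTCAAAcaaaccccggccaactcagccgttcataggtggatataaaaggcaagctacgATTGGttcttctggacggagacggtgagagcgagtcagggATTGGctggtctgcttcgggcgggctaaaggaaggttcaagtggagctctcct
CENPF, chr1:214603035-214603194, plus strand: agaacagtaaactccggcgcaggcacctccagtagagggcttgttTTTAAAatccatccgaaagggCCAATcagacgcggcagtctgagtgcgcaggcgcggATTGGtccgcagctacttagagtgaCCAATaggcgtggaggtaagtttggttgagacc
CKS2, chr9:89311035-89311194, plus strand: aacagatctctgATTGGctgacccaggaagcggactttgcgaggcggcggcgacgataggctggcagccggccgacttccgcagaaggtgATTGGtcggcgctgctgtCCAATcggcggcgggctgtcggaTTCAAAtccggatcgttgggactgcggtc
PTTG1, chr5:160421695-160421854, plus strand: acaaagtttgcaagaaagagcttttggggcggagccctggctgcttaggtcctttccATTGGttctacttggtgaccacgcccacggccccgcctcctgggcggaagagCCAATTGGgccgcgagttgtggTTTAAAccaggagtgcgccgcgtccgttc
NUSAP1, chr15:41332721-41332880, plus strand: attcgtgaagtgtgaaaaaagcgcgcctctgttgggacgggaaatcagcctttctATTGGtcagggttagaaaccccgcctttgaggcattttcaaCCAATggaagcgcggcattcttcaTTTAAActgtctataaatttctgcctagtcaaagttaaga
KIF4A, chrX:70289944-70290103, plus strand: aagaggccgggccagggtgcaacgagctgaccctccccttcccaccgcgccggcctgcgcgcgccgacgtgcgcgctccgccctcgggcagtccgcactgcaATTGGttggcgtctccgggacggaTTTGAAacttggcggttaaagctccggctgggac
Each of the 6 holds at least 1 CCAAT box and 1 CHR core. KIF4A has 1 CCAAT box and TTTGAA, while TOP2A and CKS2 have 3 CCAAT boxes each.

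All 40 mitotic genes had a lower level at day 220. Together they took 2926 CPM at day 160 and 744 CPM at day 220. All 40 reached 10 CPM in at least 1 library, and 39 were at least 2-fold lower and 0 at least 2-fold higher, against 5.15% lower and 22.8% higher among all 10167 genes that reached 10 CPM. The median log2 ratio of day 220 over day 160, of CPM + 1, was -1.74 over the members (-2.76 to -0.75) and 0.14 over all counted genes. ACTB and GAPDH, which every cell makes, also had lower levels, with log2 ratios of -1.08 and -1.12. Intervals here and below are exact, at 95%, and cover counting error only, not the spread between cultures.

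Among the cyclins and their partners the differences were large. CDK1 (chromosome 10, 60778331 to 60794852), the kinase of mitotic entry, stood at 141 CPM (139 to 143) on day 160 against 20.7 (19.0 to 22.6) on day 220, a level 6.80-fold lower (6.24 to 7.42). CDKN3, a phosphatase that removes an activating mark from CDKs, had 47.4 and 6.62 CPM, 7.17-fold lower (6.16 to 8.39). Cyclin A2 (CCNA2) had 49.0 and 8.66 CPM, cyclin B1 (CCNB1) 102 and 21.5 CPM, and cyclin B2 (CCNB2) 88.6 and 15.9 CPM. The 3 cyclins were 5.66-fold, 4.75-fold and 5.56-fold lower. CKS2, a small CDK-binding adaptor, had the smallest difference of this group, 193 and 56.5 CPM, 3.42-fold lower (3.24 to 3.61). The median log2 ratio of these 6 genes was -2.39.

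The 3 genes of anaphase onset had the lowest group median, -2.70. UBE2C (chromosome 20, 45812576 to 45816957), the ubiquitin-conjugating enzyme of the anaphase-promoting complex, had 193 CPM (191 to 196) and 27.7 CPM (25.7 to 29.8), 6.98-fold lower (6.48 to 7.53). CDC20, which activates that complex, had 58.2 and 8.12 CPM, 7.16-fold lower (6.25 to 8.25). PTTG1, the securin that guards sister chromatids until anaphase, had 236 and 47.7 CPM, 4.94-fold lower. The near-identical PTTG2 had 0.14 and 0.0385 CPM, and reads that fit both genes could have been lost or moved in counting.

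MKI67 and TOP2A, often used as marks of proliferation, had log2 ratios of -1.98 and -2.04, between the lower quartile of the list (-2.08) and its median. MKI67, which coats mitotic chromosomes, had 114 and 28.1 CPM, 4.06-fold lower (3.77 to 4.38). TOP2A, which untangles sister DNA, had 26902 and 1298 UMIs, 209 CPM and an interval of 47.3 to 52.8 CPM, 4.18-fold lower (3.95 to 4.42).

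The 6 genes of the mitotic kinases and the chromosomal passenger complex had a median log2 ratio of -1.79. BIRC5 (survivin), a passenger subunit, had 92.3 and 17.5 CPM, 5.27-fold lower (4.80 to 5.80). Its partner kinase AURKB was 3.81-fold lower (3.31 to 4.42) and the passenger subunit CDCA8 3.02-fold lower (2.55 to 3.61). PLK1, the Polo-like kinase, had 34.7 and 8.35 CPM, 4.16-fold lower. The spindle-pole kinase AURKA was 3.13-fold lower and its activator TPX2 3.55-fold lower.

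Kinetochore and checkpoint genes had median log2 ratios of -1.54 and -1.56. The order of the groups depended on scaling: set against genes of like intron length, as described below, they were at -1.85 and -1.68, lower than the kinase and passenger group at -1.53. CENPF, a kinetochore and nuclear envelope protein, had 278 CPM (275 to 281), with day 220 between 91.3 and 98.9 CPM, 2.93-fold lower. CENPE, the kinesin that carries chromosomes to the spindle equator, was 2.46-fold lower (2.24 to 2.71), and the microtubule-binding subunits NDC80 and NUF2 were 3.51-fold and 3.96-fold lower. CENPA, the histone of centromeres, had 3870 UMIs (29.1 to 31.0 CPM) and 346 UMIs (13.3 CPM), 2.26-fold lower (2.02 to 2.52). Of the checkpoint genes, MAD2L1 was 4.26-fold lower and the kinase TTK 3.81-fold, BUB1 3.25-fold and BUB1B 2.75-fold. BUB3 (chromosome 10, 123154277 to 123170467), a checkpoint adaptor, had 94.3 and 33.5 CPM, 2.82-fold lower (2.63 to 3.02).

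Spindle and cytokinesis genes had median log2 ratios of -1.52 and -1.53. Among them NUSAP1, which bundles spindle microtubules, was 4.77-fold lower, and ASPM, a spindle-pole protein mutated in primary microcephaly, had 70.3 and 17.3 CPM, 4.06-fold lower. DLGAP5, HMMR and KIF2C were 3.80-fold, 3.02-fold and 3.17-fold lower, and KIF11, which pushes spindle poles apart, was 2.43-fold lower. In the midzone group KIF20A, KIF23, KIF20B and PRC1 were 3.73-fold, 3.46-fold, 3.25-fold and 2.76-fold lower. ECT2, which sets the cleavage plane, was 2.35-fold lower and the furrow protein ANLN 2.14-fold (1.85 to 2.49).

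KIF4A (chromosome X, 70290090 to 70420832), the chromokinesin of the midzone, was the exception to the 2-fold difference, with 18.3 CPM (17.6 to 19.1) and 10.5 CPM (9.26 to 11.8), 1.75-fold lower (1.54 to 1.99). It also has the most intron sequence of the 40, 126210 annotated bases. Across the 40 genes the log2 ratio went with intron length (Spearman's rho 0.58 over genes, which are not independent), as it did over 10139 counted genes (0.64). After each ratio was centred on counted genes of like intron length, KIF4A was at -1.80, all 40 were at least 2-fold lower and 0 higher, against 7.54% and 10.4% of genes, and the median was -1.80. UBE2C was at -2.41 and CDKN3, the lowest, at -2.54.

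**Figure D1:**
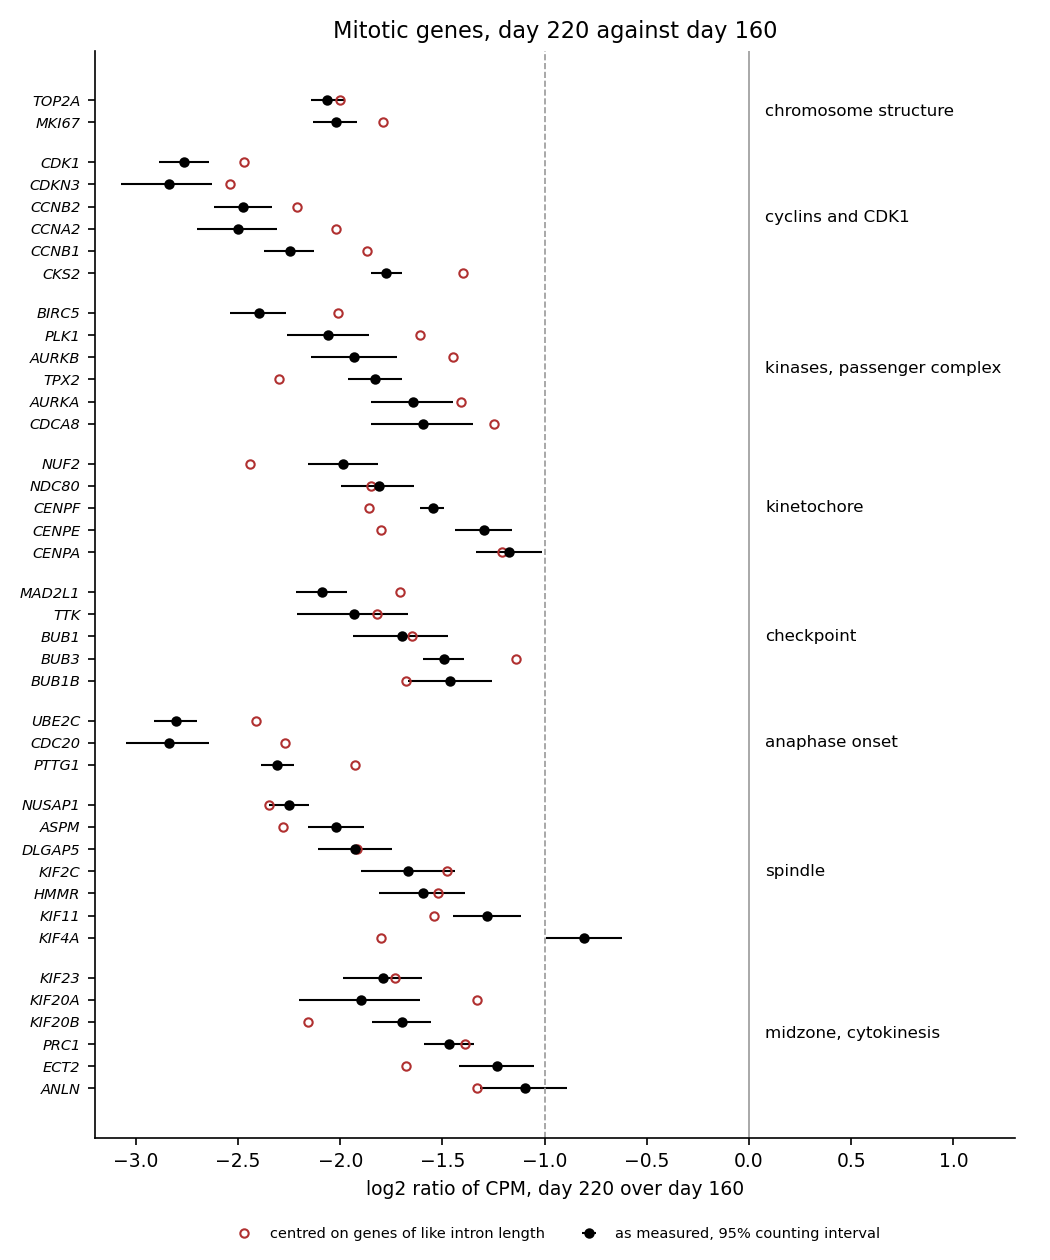
Log2 ratio of CPM (no pseudocount) of each mitotic gene, day 220 over day 160, grouped by role, with 95% counting intervals (filled points), and the log2 ratio of CPM + 1 after centring on intron length (open points); the dashed line is 2-fold lower. All points lie below 0, and KIF4A, at 1.75-fold lower, is the filled point to the right of the dashed line.

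The number of mitotic genes found per cell set a minority of cells apart. At 5000 UMIs, 2294 of 9279 cells at day 160 (24.7%, 23.8 to 25.6) had a UMI of 5 or more members, against 30 of 494 at day 220 (6.07%, 4.13 to 8.56). The share at day 160 was 4.07 times that at day 220. Before thinning these were 38.5% and 54.6%, an order that goes with the greater depth at day 220. At 10 or more members the thinned shares were 18.8% and 4.66%, and at 20 or more 10.4% and 2.83%. Most other cells had none or a few: 18.8% and 38.9% had 0 members, and 26.2% and 36.2% had 1. The count of 5 lies on a continuous range, with 337 cells at 4 members and 182 at 5 at day 160, and 6 and 3 at day 220. The highest number in a cell was 39 at day 160 and 36 at day 220.

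**Figure D2:**
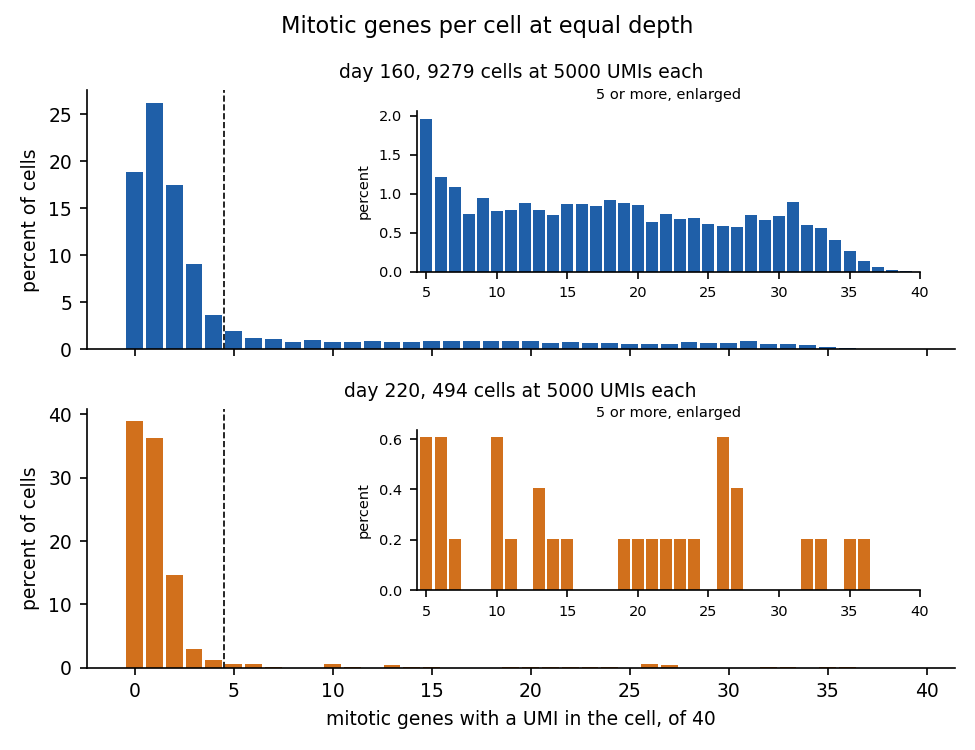
Percent of cells (vertical axis) by the number of the 40 mitotic genes with a UMI (horizontal axis) at 5000 UMIs per cell, for each day, with cells right of the dashed line enlarged in the insets. Cells with 5 or more members spread up to 39 and 36 members, and make up 24.7% at day 160 and 6.07% at day 220.

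Those cells held most of the mitotic RNA. They were chosen by the same counts, so a high share was in part set by the choice. At day 160 they carried 90.7% of the member UMIs, 45.8 per cell of 5000, against 2.05 per cell with 1 to 4 members. At day 220 they carried 74.4%, 41.0 per cell. Before thinning they had a median of 12827.5 UMIs at day 160, against 9374 in cells with 0 members, and 54403 against 48269 at day 220. Their median mitochondrial share was 11.2% against 12.1% at day 160 and 6.84% against 8.79% at day 220. Scrublet, a doublet caller, marked 275 of the 2294 day 160 cells with 5 or more members and 59 of the 1747 with 0 (3.38%). At day 220 it marked 1 of 30 and 2 of 192. The part of depth, mitochondrial share and doublets in the member counts was not tested.

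Within cells that carried the other mitotic genes, the levels of the 2 days lay closer together than over all cells. For each member, cells with 5 or more of the other 39 were taken, 2191 to 2293 cells at day 160 and 27 to 30 at day 220. At 5000 UMIs, 22 members had a lower and 18 a higher level at day 220, with a median ratio of 0.944 (0.424 to 2.62). With all UMIs of the same cells, a measure added after the data were seen, 19 had a lower and 21 a higher level, and the median was 1.03. There 1 member was at least 2-fold lower and 1 at least 2-fold higher, against 2.91% and 24.1% of all 10240 genes counted in cells with 5 or more members. Among the members near 1, MKI67 had 392 and 402 CPM in such cells, a ratio of 1.03 (0.951 to 1.11), and TOP2A 718 and 687 CPM, 0.957 (0.904 to 1.01). AURKB and ASPM had ratios of 1.06 (0.912 to 1.22) and 1.03 (0.932 to 1.13).

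Some members still differed between days inside these cells by more than counting error. At 5000 UMIs, 7 of the 40 had an interval wholly below a ratio of 1 and 4 wholly above it. With all UMIs, the measure added after the data were seen, these were 14 and 12. How many of all genes had such an interval in these cells was not counted, so these counts cannot be set against other genes. Over the 10240 genes counted with all UMIs in cells chosen by all 40 members, the median log2 ratio was 0.21, higher at day 220. The intervals do not cover the spread between cells, and the values below use all UMIs unless stated. On the low side CDKN3 had 153 and 72.9 CPM, a ratio of 0.477, and CDC20 197 and 102 CPM, 0.515 (0.443 to 0.595). UBE2C had 662 and 376 CPM, 0.568 (0.526 to 0.613), and CDK1 439 and 270 CPM, 0.614 (0.561 to 0.671). CCNA2, CCNB1 and CCNB2 had ratios of 0.649, 0.652 and 0.659. In the other direction KIF4A had 61.2 and 134 CPM, 2.19 (1.91 to 2.50), ANLN 1.67 (1.40 to 1.97), CENPE 1.64 (1.48 to 1.80) and KIF11 1.55 (1.36 to 1.75). The members named here as higher have 57250 to 126210 annotated intron bases, and those named as lower 2211 to 21534. Members not named above break this split. CDCA8, at 1.37 (1.14 to 1.63), has 14833 intron bases, and NUSAP1, at 0.847 (0.788 to 0.910), has 45482. These ratios were not centred on intron length, and its part in them was not tested. The day 220 values rest on 30 cells or fewer. At 5000 UMIs the ratio of CDC20 was 0.840 (0.537 to 1.25) and that of ANLN 2.62 (1.49 to 4.31).

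How strictly a gene kept to cells that carried the other members varied widely. At day 160 the level at 5000 UMIs in cells with 5 or more of the others was a median of 69.7 times that in cells with none of the others. It was 376 times for MKI67 (198 to 822) and 158 times for TOP2A (115 to 223). BUB3 had the lowest fold, 4.26 (3.88 to 4.69), with 205 CPM against 48.2 CPM, and only 54.9% of its UMIs were in cells with 5 or more of the others. CKS2 was next, at 10.3 (9.44 to 11.3), with 75.4% of its UMIs there, then ANLN at 14.4 and KIF20B at 17.4. PTTG1 had 22.3, with 83.2% of its UMIs there. For MKI67 that share was 98.1% and for KIF20A 98.0%. At day 220 the shares were 17.4% for BUB3 and 41.3% for CKS2, against 100% for TOP2A and 95.3% for MKI67. A UMI of BUB3 was found in 31.1% of all thinned cells at day 160 and 16.2% at day 220, and of MKI67 in 17.5% and 4.25%.

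For comparison, shares were read in the day 160 cluster led by CALB2, SCGN and BCL11B. Its neuron markers summed to 4858 CPM against 1716 CPM in the other cells, and its neuronal precursor markers to 10351 CPM. It held 12 cells with 5 or more members, so it is not free of such cells. There 1.72% of 639 cells had MKI67, 4.69% TOP2A and 0 of 639 BUB1, which allows up to 0.469% of cells with a UMI at this depth and sets no limit on cells that express it, while 23.6% had BUB3, 16.1% CKS2 and 18.0% PTTG1. The median depth of this cluster was 5526 UMIs before thinning, against 10457.5 over all cells.

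CENPA stood apart at day 220. Cells with none of the other 39 members were chosen at 5000 UMIs, but their levels below are from all their UMIs, which can hold those members: before thinning 91.0% of all day 160 cells and 94.8% of day 220 cells had at least 1 of the 40. In the cells so chosen CENPA had 0.558 CPM (0.289 to 0.975) at day 160, from 12 UMIs in 1752 cells, and 7.84 CPM (6.27 to 9.68) at day 220, from 86 UMIs in 199 cells, 14.0-fold higher (7.64 to 28.2). In cells with 5 or more of the others it had 102 and 91.9 CPM. In cells with none of the others 33 of the 40 members had a lower level at day 220 and 7 a higher one, with a median ratio of 0.498. The same count was not made over all genes in these cells, so it cannot be set against other genes. CENPF had a ratio of 1.33 (1.14 to 1.55) there, and CDK1 0.0633 (0.0344 to 0.107), at 20.8 and 1.32 CPM. The CENPA gene as annotated (chromosome 2, 26764289 to 26801067) overlaps SLC35F6 on the same strand over 16943 bases. SLC35F6 had 38.5 and 33.4 CPM in the same cells with none of the others. Whether reads of the overlap were counted for CENPA was not tested.

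**Figure D3:**
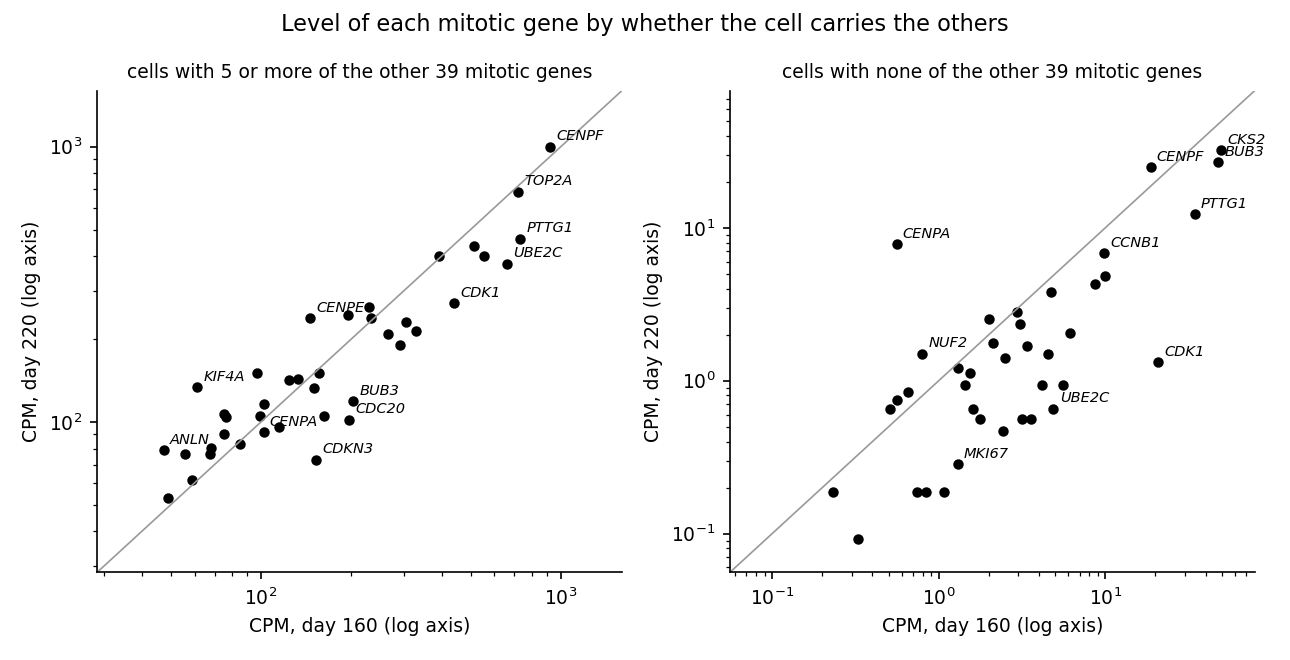
CPM of each mitotic gene at day 160 (horizontal, log axis) and day 220 (vertical, log axis) in cells with 5 or more of the other 39 members (left) and with none of them (right), chosen at 5000 UMIs and measured from all UMIs of the cells; the line marks equal levels and KIF20A, at 0 on the right at day 220, is not drawn there. Points on the left lie on both sides of the line, with ratios from 0.477 to 2.19. On the right most lie below the line, while CENPA lies above it at 7.84 against 0.558 CPM.

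Members were often found in the same cells, to an extent that varied between pairs. At day 160, 73.3% of cells with TOP2A also had MKI67, and 6.31% of cells without MKI67 had TOP2A. Of AURKB cells, 77.3% had BIRC5, against 12.7% of cells without AURKB. NUF2 was found in 51.5% of NDC80 cells and in 6.36% of cells without NDC80. Sharing was lower for AURKB and CDCA8 (31.9% of AURKB cells), BUB1 and BUB1B (37.6% of BUB1 cells) and ANLN and ECT2 (32.7% of ANLN cells). PTTG1 was found in 90.2% of CDC20 cells, whereas CDC20 was found in 28.5% of PTTG1 cells. At day 220 16 cells had both MKI67 and TOP2A, 76.2% of MKI67 cells and 88.9% of TOP2A cells, and 8 of 9 AURKB cells had BIRC5. CENPA and CENPF shared 93.8% of CENPA cells at day 160 and 33.3% at day 220.

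The members differed in how much replication RNA their cells carried. UMIs of 40 S-phase genes, among them PCNA, the MCM helicase genes and RRM2, averaged 20.7 per 5000 in day 160 cells with 5 or more members, against 3.13 in cells with 0. Among cells with 5 or more of the other members, those with a UMI of PLK1 had the fewest at day 160, 11.7, followed by CENPA with 12.4, CDC20 with 12.5 and KIF20A with 12.6. Carriers of CENPE, AURKA and CCNB1 had 13.6, 13.7 and 13.9. At the other end carriers of CDK1 had 22.7, MAD2L1 21.2, BUB3 20.4 and CCNA2 19.7. The cells of CCNB2 lay between, at 15.5, and so did those of TPX2, at 17.6. At day 220 the range was 9.33 for CDC20 to 25.1 for CCNA2, from 12 and 8 cells, and the order over the 40 genes had a Spearman's rho of 0.62 with that of day 160. The genes share cells, so this order is a description.

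**Figure D4:**
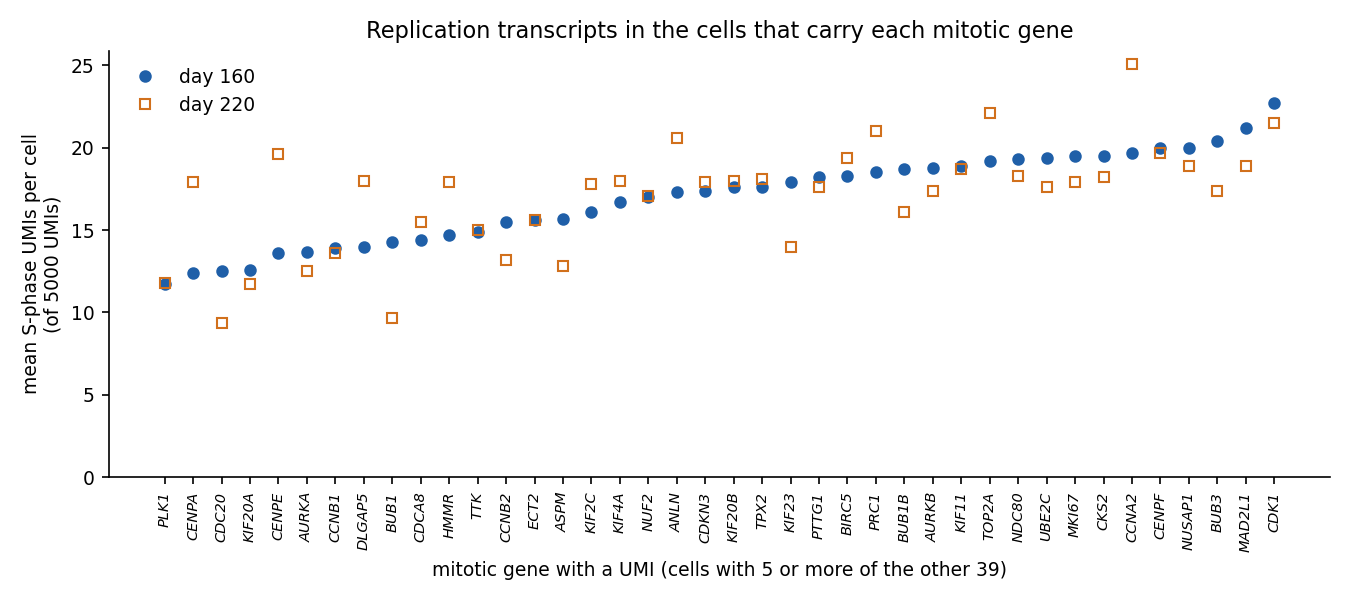
Mean UMIs of 40 S-phase genes per cell (vertical axis, of 5000 UMIs) in cells that carry each mitotic gene (horizontal axis) and 5 or more of the others, at day 160 (filled circles) and day 220 (open squares). At day 160 the values run from 11.7 for PLK1 to 22.7 for CDK1.

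Cells carrying mitotic genes were found in most of the cell groups of day 160. Each library was clustered alone, with the members, the listed cell cycle genes and any gene whose correlation with the summed member level was above 0.2 left out, 607 genes at day 160 and 874 at day 220. At day 160 the cluster led by OLIG1, LMO1 and GADD45G had the highest share of cells with 5 or more members, 724 of 1355 (53.4%, 50.7 to 56.1), and held 31.6% of all such cells. Next were the cluster led by PEG10, GAD2 and NPY with 37.0% (34.3 to 39.8) and that led by GPC3 and RAMP1 with 35.8% (31.9 to 39.8). The cluster led by the contractile genes TAGLN and COL1A1 had 30.3% (24.4 to 36.7). The CRABP1 and HOXB6 cluster had 18.7% (16.7 to 20.8), the HOPX and BCAN cluster 193 of 1377 (14.0%) and the cluster led by HLA class II genes 13.0% (11.5 to 14.7). The SST and POU3F4 cluster had 6.93% (4.34 to 10.4) and the CALB2 and SCGN cluster 1.88% (0.974 to 3.26). A further 2 clusters held 26 and 1 thinned cells and are not described. A cluster led by NEAT1 and DCX had 31.5%, and 88.3% of its cells were marked as doublets. The part of doublets in its value was not tested. Whether cell cycle RNA that remained in the clustering shaped any of the clusters was not tested either.

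At day 220 the cluster led by NPY, CHRNA1 and TAC3 had the highest share, 17 of 103 cells (16.5%, 9.92 to 25.1), and held 56.7% of the cells with 5 or more members. The OLIG1 and DPP6 cluster had 6 of 82 (7.32%, 2.73 to 15.2), the DLX6-AS1 and ERBB4 cluster 4 of 126 (3.17%, 0.872 to 7.93) and the SPARCL1 and HLA-DPA1 cluster 3 of 132 (2.27%). In the COL1A1 and TAGLN cluster 0 of 51 cells had 5 or more members, which allows a share of up to 5.88%. Clusters of the 2 days are set side by side only by their leading genes, since no shared clustering was made. On that footing the shares were 37.0% and 16.5% where NPY and GAD2 were among the leading genes, and 53.4% and 7.32% where OLIG1 led. They were 13.0% and 2.27% where HLA class II genes were among the leading genes, and 30.3% and 0 where COL1A1 and TAGLN were. OLIG1 itself had 6.69 CPM at day 160 and 183 CPM at day 220 over all cells, so a shared leading gene does not make the clusters the same cells.

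**Figure D5:**
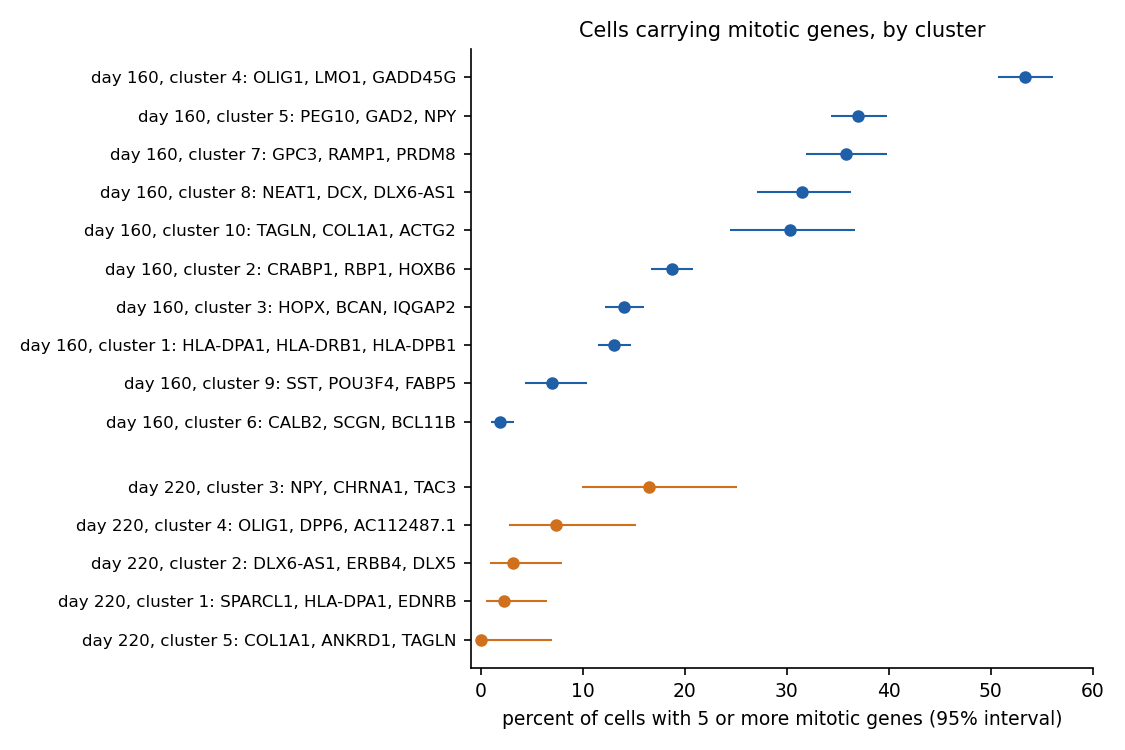
Percent of cells with 5 or more mitotic genes at 5000 UMIs (horizontal axis, with 95% exact binomial intervals) in each cluster of 50 or more thinned cells, named by its leading genes, at day 160 (blue) and day 220 (orange). Shares run from 1.88% to 53.4% at day 160 and from 0 to 16.5% at day 220.

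Other genes of the division machinery are set against the 5.15% of all counted genes that were at least 2-fold lower and the 22.8% that were higher. Outside the list, 33 genes of the kinetochore, centromere and checkpoint were counted: 16 had a level at least 2-fold lower and 1 a higher one, and their median log2 ratio was -0.95. The inner kinetochore genes CENPH, CENPU and CENPM had the lowest, -2.04, -1.81 and -1.73, and CENPP the highest, 3.13, or 1.47 after centring on intron length. A further 24 spindle and cytokinesis genes included 18 that were lower and 0 that were higher. Their median was -1.56, and DEPDC1 was lowest at -2.41. Of 17 condensin and cohesin genes 6 were lower and 3 higher. The condensin genes NCAPG, NCAPH and SMC2 were at -1.62, -1.62 and -1.44, and the cohesin gene STAG1 at 2.56, or -0.01 after centring.

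Of 28 counted regulators of the mitotic programme 11 were lower and 3 were higher (median -0.55), beside the same 5.15% and 22.8% of all counted genes. FOXM1 and MYBL2, the transcription factors that switch on G2 and mitotic genes, had 25.6 and 6.35 CPM and 36.6 and 8.47 CPM, 4.03-fold (3.45 to 4.74) and 4.32-fold lower (3.78 to 4.97). PBK, a mitotic kinase, was 5.80-fold lower, and LIN52, a MuvB subunit, had a log2 ratio of 1.22, or 0.16 after centring. CDKN1A, the p21 inhibitor of CDKs, named after its values were seen, had 70.8 and 126 CPM. The 35 counted S-phase genes included 22 that were lower and 1 that was higher (median -1.14). The licensing gene CDT1 was at -2.21, the nucleotide reductase subunit RRM2 at -2.00 and the primase PRIM1 at -1.94, and POLA1 was 2.94-fold higher, at -0.16 on the log2 scale after centring.

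Genes outside the list were ranked by how like their levels over cells were to the summed members. At day 160, over 9972 cells and 13921 genes, PBK and SGO2, a protector of centromeric cohesion, had the highest Pearson's r, 0.86 each, followed by GTSE1 with 0.85, HMGB2 and CDCA3 with 0.84 and TACC3 with 0.83. At day 220, over 524 cells, these were KIF14 with 0.93, CEP55 with 0.92, GTSE1 with 0.91 and ARHGAP11A and KIF18B with 0.90. GTSE1, PIMREG and CKAP2L were among the 10 highest on both days. Within the list TOP2A was most like the sum of the others on both days, with r of 0.92 and 0.96, and BUB3 and ANLN were least like it at day 160, 0.58 and 0.56. Cells of a library share its depth and composition, so these values are descriptions.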

How the data were processed

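The authors deposited unnormalised UMI counts for each gene and barcode. The file headers name Cell Ranger 7.0.1, and the submitters' processing notes list Cell Ranger 7, Seurat 4 and hg38. The use of intronic reads, the use of strand and the annotation release were not given in the sources, so genes that overlap others (CENPA and SLC35F6, PRC1 and PRC1-AS1) or have near-identical copies (PTTG1) are uncertain. The members and the gene lists were chosen with earlier results of these data known.

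Per library, counts of passing barcodes were added up and expressed as CPM, with a pseudocount of 1 CPM before the log2 ratio of the days. A gene was counted if either library reached 10 CPM. With 1 library per day there was no test. CPM carry Poisson, ratios conditional binomial and shares Clopper-Pearson intervals, at 95%. With no count, 3 counts of the total are the limit. Doublets were kept, and leaving out the 583 and 6 barcodes that Scrublet marked (expected rate 0.06) was an alternative.

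Gene coordinates and intron lengths came from GENCODE 29 on GRCh38 by Ensembl identifier, and centring subtracted the median of 20 equal bins of intron length. Clusters used 2000 variable genes, 30 components, 15 neighbours and Leiden resolution 0.5 (scanpy 1.11.5). Named genes were all 40 members, in each other list the 3 lowest and the highest ratio among counted genes, of which some are printed, the genes most alike and the leading genes of clusters. The ratio and thinning steps were tested on simulated data. Alternatives covered doublets, the mitochondrial and gene limits, the CPM minimum, the pseudocount, scaling, thinning depth and the number of members.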

Additional observations from a re-analysis of the deposited data

Results flagged for a closer look

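Mitotic gene UMIs were also present in barcodes that the filters left out, above the limit that a count of 0 allows. At day 160 the 2426 barcodes with 1000 or more genes and over 15% mitochondrial UMIs had 867 CPM of the members, against 2926 CPM in passing barcodes, and 6.52% of those thinned to 2000 UMIs had 5 or more members against 17.9%. The 620 barcodes under 1000 genes at day 160 had 706 CPM. At day 220 the 62 barcodes over the mitochondrial limit had 248 CPM, against 744 CPM in passing barcodes. The 90 barcodes under 1000 genes at day 220 had 733 CPM, from 93 UMIs.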

How the results depend on the processing

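Over 10 alternatives each, the number of members at least 2-fold lower ranged from 18 to 40 and the number at least 2-fold higher was 0 in each. The 18 came with a minimum of 50 CPM, which left 18 members to count, with a median log2 ratio of -2.04. With a mitochondrial limit of 10% the median was -2.26, and with cells thinned to 5000 UMIs 36 members were at least 2-fold lower. Of 378 values of single members under these alternatives 0 changed sign.

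The share of cells with 5 or more members at day 160 was 23.2% without barcodes marked as doublets, 37.6% and 22.1% with mitochondrial limits of 10% and 25%, 17.9% at 2000 UMIs and 40.5% at 10000 UMIs. With 3 or more members the shares were 37.5% and 10.3% for the 2 days, and with 10 or more members 18.8% at day 160. At 10000 UMIs the day 220 share was 8.92%. That depth left 5274 cells at day 160 and 482 at day 220. The mitochondrial limit of 10% left 1849 and 359, against 9279 and 494 in the main setting. The ratio of the shares, day 160 over day 220, was lowest at 2000 UMIs (3.53), highest with the mitochondrial limit of 10% (37.6% against 7.52%), and above 1 in all 8 alternatives. Inside cells with 5 or more of the others, the number of members with a lower level at day 220 ranged from 19 to 31 of 40, and the median ratio was 0.769 with a mitochondrial limit of 10%, 0.780 at 2000 UMIs and 0.777 at 10000 UMIs, against 0.944. The cause of these shifts was not tested. The 30 cells with 5 or more members at day 220 limit all values inside such cells of that day. No paired analysis was possible because each day has 1 library.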
